A study of Homo sapiens with 6 samples.

Results

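The sterol and fatty acid synthesis genes described here are 33 genes of cholesterol synthesis, its control and lipid synthesis, measured by RNA-seq in the human ovarian cancer line OVCAR5. They were chosen by name, by matching the gene identifiers of the count table to a list of symbols, and all 33 were found among its 60649 rows. By role they comprised 6 enzymes of the mevalonate steps, 11 enzymes from squalene to cholesterol and 5 proteins that control the SREBP factors. The rest were 2 sterol transport proteins and 9 enzymes listed under fatty acid synthesis, among them LPIN1, which acts in glycerolipid synthesis. OVCAR5 cells had been transduced with a lentivirus carrying METTL3, the catalytic subunit of the m6A RNA methyltransferase, or with an empty-vector lentivirus, and both lines had been selected with puromycin and grown in serum-containing medium. There were 3 METTL3-overexpressing and 3 vector control libraries, numbered 1 to 3 in each group, and no drug treatment is named for them. The design text calls the controls parental while the treatment protocol gives them the empty vector. Whether the lines are clones or pools, and which promoter drives METTL3, is not given in the sources used here, and nothing says that the libraries came from separate cultures, so p-values measure only the spread between these libraries.

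Cholesterol is built from acetyl-CoA through mevalonate and squalene, and fatty acids from acetyl-CoA through malonyl-CoA. Both pathways are switched on by the SREBP transcription factors, made from SREBF1 and SREBF2. SREBP precursors are held in the endoplasmic reticulum by the escort protein SCAP and the retention proteins INSIG1 and INSIG2 while sterols are plentiful, and are carried to the Golgi and cut into active factors when sterols fall. SREBP-2 acts mainly on sterol genes and SREBP-1c on fatty acid genes, and INSIG1 is itself a target that damps the loop.

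Total counts ranged from 96633925 to 125463386 per library, and the members had mean counts from 617 to 37721, so counting error was small beside the spread between libraries. METTL3 was at 152, 165 and 175 CPM (counts scaled to library totals adjusted by TMM) with overexpression and at 80.6, 68.6 and 71.6 CPM with the vector, as the labels imply. All 7 epithelial markers were expressed. Of 12 markers of stromal, endothelial and blood cells, 6 did not pass the filter on low counts, PTPRC, CD3E and DCN among them, and the level summed over the markers that passed was 16.96 to 39.2 CPM per library. Replicate 1 of each group stood apart from the other libraries. The chi-square per degree of freedom between libraries of one group was 12.5 and 12.9 for replicate 2 against 3, and from 114 to 248 where replicate 1 was involved. The comparisons are therefore also given for replicates 2 and 3 alone.

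The promoters show what the members share in sequence. RefSeq promoter windows (GRCh38.p14, from 250 bases before to 50 bases after an annotated start) were matched for 30 of the 33 members. FDFT1, SQLE and FASN were not matched. The windows were searched on both strands for the sterol regulatory element TCACNCCAC, the NF-Y box CCAAT and the GC box GGGCGG, and a gene was counted when any of its windows held the motif. A reversed NF-Y box can share its last letters with a GC box. Stretches from 200 to 1 bases before the start, on the gene's strand, are shown for 3 members that differ in how they behaved. SREBF2 and DHCR7 were higher in every METTL3-overexpressing library, and HMGCS1 was highest in vector control replicate 1. Capitals mark sterol regulatory elements and NF-Y boxes, which read ATTGG when reversed. GC boxes are left in lower case.
SREBF2, chr22:41832905-41833104, forward strand: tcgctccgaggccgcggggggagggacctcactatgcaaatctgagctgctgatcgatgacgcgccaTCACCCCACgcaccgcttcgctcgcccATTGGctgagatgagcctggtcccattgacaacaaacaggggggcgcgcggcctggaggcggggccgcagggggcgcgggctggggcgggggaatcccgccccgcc
HMGCS1, chr5:43313413-43313612, reverse strand: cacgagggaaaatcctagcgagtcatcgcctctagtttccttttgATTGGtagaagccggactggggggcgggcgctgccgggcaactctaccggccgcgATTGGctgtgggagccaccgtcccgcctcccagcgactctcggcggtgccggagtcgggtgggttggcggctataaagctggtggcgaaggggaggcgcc
DHCR7, chr11:71448394-71448593, reverse strand: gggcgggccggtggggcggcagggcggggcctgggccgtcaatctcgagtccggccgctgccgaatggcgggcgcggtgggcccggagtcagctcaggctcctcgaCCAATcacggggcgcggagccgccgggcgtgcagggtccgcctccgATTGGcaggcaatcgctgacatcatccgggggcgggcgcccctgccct

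The SREBF2 stretch holds the sterol regulatory element 133 bases before the start, followed by a reversed NF-Y box at 106 bases. Such a window with both motifs occurred in 0.425% of the 27305 genes with a promoter in the table. HMGCS1 holds reversed NF-Y boxes at 155 and 100 bases, and DHCR7 holds 1 in each orientation, at 94 and 48 bases. NF-Y is a factor that assists SREBPs at many of their targets. Its box was found in 21 of 30 members (70.0%), against 39.7% of all genes with a promoter and 41.7% of those that passed the count filter. By role it was in 5 of 6 mevalonate genes and 8 of 9 squalene to cholesterol genes, but in 2 of 5 SREBP control genes and 5 of 8 fatty acid genes. GC boxes, bound by Sp1, were in 29 of 30 members (96.7%), against 71.9% of genes that passed the filter. The exact sterol element was in 1 member (3.33%), SREBF2, against 1.46% of genes that passed the filter. A match is a description of the letters and not evidence of binding.

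Per kilobase of merged exons (all annotated exons of a gene), SCD, the desaturase that makes oleic acid, had the highest level, with a mean of 63.8 CPM per kb over the 6 libraries (50.9 to 110). ACLY, which makes cytosolic acetyl-CoA, followed at 44.5 CPM per kb (32.8 to 50.02), and SQLE, the squalene epoxidase, at 44.4 CPM per kb (36.1 to 52.0). PMVK at 36.9 CPM per kb and FASN at 36.4 CPM per kb came next. The lowest library of SCD lay above the highest of ACLY and PMVK but not above those of SQLE and FASN, and the ranges of ACLY, SQLE, PMVK and FASN overlapped one another. The order also depended on the length used, since per kb of the longest transcript the mean of SQLE was 64.5 CPM per kb and that of SCD 63.8 CPM per kb. Most members lay between 4.65 CPM per kb (LPIN1) and 23.5 CPM per kb (FDFT1). The lowest were HSD17B7 at 2.57, MVK at 2.03, FADS2 at 1.66 and CYP51A1 at 1.36 CPM per kb. For CYP51A1, lanosterol 14-demethylase, 68.2% of exonic bases are shared with genes annotated on the same strand, and for EBP, a sterol isomerase, the share was 36.4%, so their counts are uncertain. Exons on the opposite strand overlap 37.7% of HMGCS1, 18.6% of FDPS and 15.0% of IDI1, and the use of strand in counting is not given in the sources used here.

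**Figure D1:**
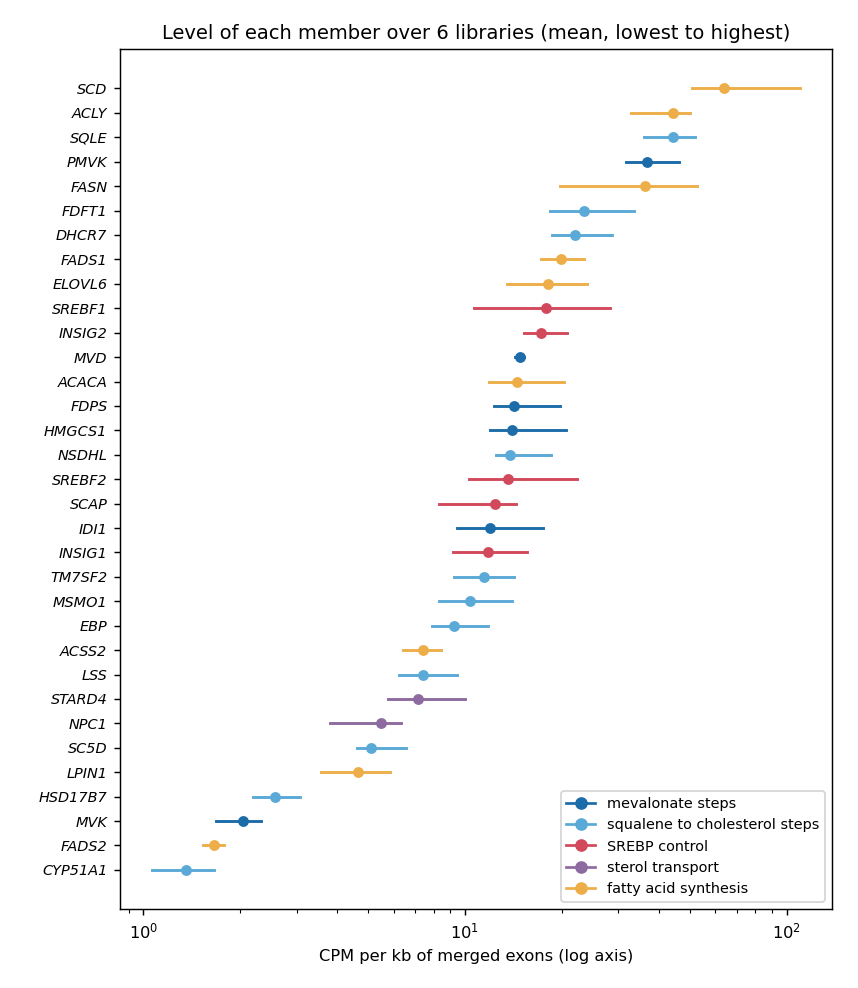
Mean level of each member over 6 libraries (points) with the lowest and highest library (lines), in CPM per kb of merged exons on a log axis, coloured by role. Levels run from 1.36 CPM per kb for CYP51A1 to 63.8 CPM per kb for SCD, and most neighbours overlap.

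With all 6 libraries, 0 of the 33 members had an adjusted p under 0.05 in edgeR's quasi-likelihood test of METTL3-overexpressing against vector control cells, as for all 22038 genes tested (0% called). In such bulk libraries less RNA per cell and fewer cells that express a gene cannot be told apart. The members' adjusted p-values lay between 0.547 and 0.978. DESeq2 also called 0 members, where it called 1.47% of genes. METTL3 itself, the overexpressed gene, was not called in edgeR's test either (log2 fold change 1.16, SE 0.12, adjusted p = 0.072). DESeq2 called it (adjusted p = 1.4e-14). The lack of calls in edgeR's test on 6 libraries therefore does not show that the members were unchanged. Before adjustment, 5 members were higher at p under 0.05 (background 4.40% of genes in this direction), namely SREBF2, LSS, DHCR7, FASN and LPIN1. In the other direction, 1 member, PMVK, was lower (background 3.91%). The same 6 members were those whose CPM did not overlap between the groups. They made up 15.2% of members in the higher direction, against 8.47% of genes, and 3.03% in the lower direction, against 8.93%. The direction was mixed, with 18 members higher (54.5%, against 47.3% of genes) and 15 lower. The members' median log2 fold change was 0.043, against -0.018 for all genes tested. Where genes of low count were kept, edgeR called 1.30% of genes and 3 members, SREBF1 (adjusted p = 0.037), SREBF2 (0.0093) and FASN (0.0040). Without vector control replicate 1, it called 1.62% of genes and 1 member, ELOVL6 (adjusted p = 0.031).

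**Figure D2:**
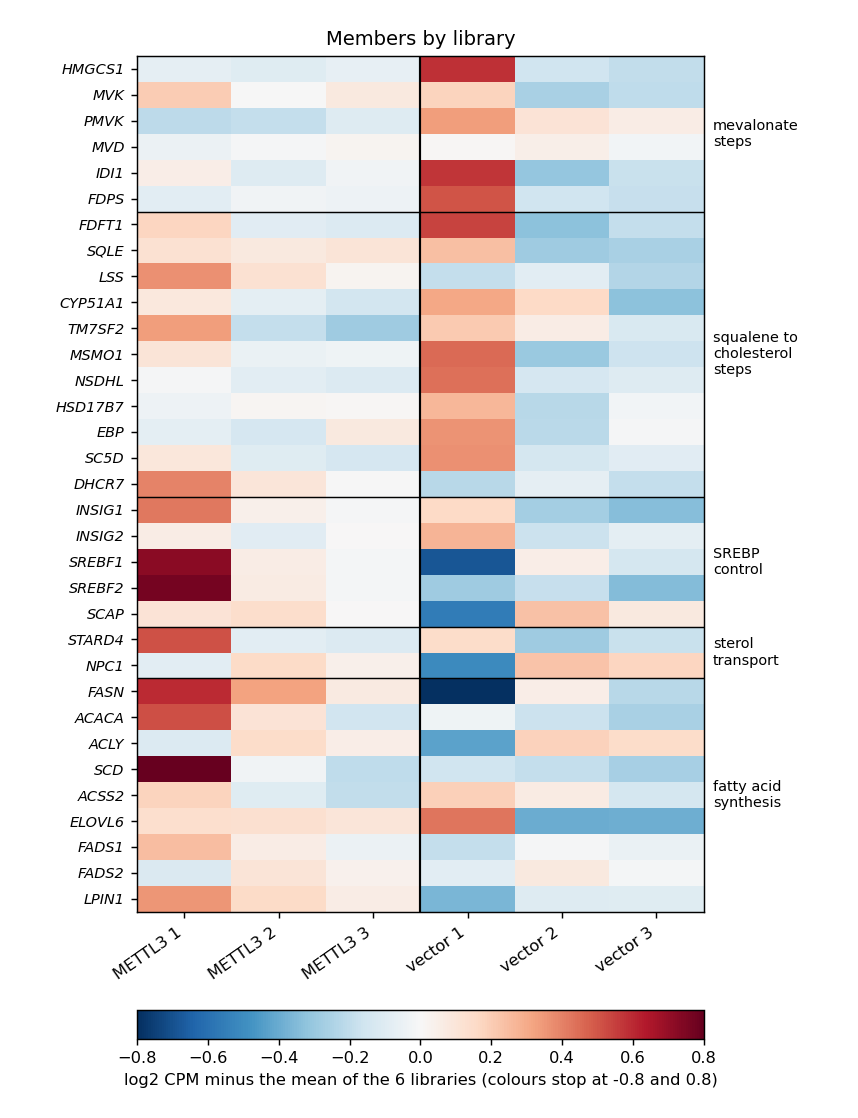
Colour gives log2 CPM of each member in each library minus its mean over the 6 libraries. The 2 replicate 1 columns carry the strongest colours, red in vector control replicate 1 for most sterol enzymes and red in METTL3-overexpressing replicate 1 for SREBF1, SREBF2, FASN and SCD.

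In the replicate 1 libraries the roles leaned in different directions, with exceptions in most of them. Within replicate 1, the median difference of METTL3-overexpressing minus vector control log2 CPM was -0.53 for the mevalonate steps and -0.28 for the squalene to cholesterol steps. It was 0.67 for SREBP control, 0.40 for sterol transport and 0.44 for fatty acid synthesis. There 5 of 6 mevalonate and 8 of 11 squalene to cholesterol genes were lower, MVK, LSS, TM7SF2 and DHCR7 being higher. Of the other roles, INSIG2, ACSS2, ELOVL6 and FADS2 were lower and the rest higher. Within replicate 2 the same medians were 0.096, 0.17, 0.080, 0.065 and 0.16. Within replicate 3 they were 0.14, 0.086, 0.13, -0.030 and 0.065. The role medians of replicates 2 and 3 were thus small and above 0 apart from sterol transport in replicate 3. Single members could still be lower, 8 of 33 within replicate 2 and 8 of 33 within replicate 3. The opposite signs of the role medians came from replicate 1. A difference over 1.5-fold was seen for 9 of 33 members within replicate 1 (background 29.8% of genes), and for 0 members within replicate 2 (background 18.0%) and replicate 3 (background 17.9%). Vector control replicate 1 was the highest of the 6 libraries for 15 members (45.5%, background 30.1% of genes). Among them were 4 of 6 mevalonate genes and 8 of 11 squalene to cholesterol genes. METTL3-overexpressing replicate 1 was the highest for 13 members (39.4%, background 25.1% of genes), 5 of them in fatty acid synthesis.

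In replicates 2 and 3 alone, 8 members had an adjusted p under 0.05 in edgeR's test. In the higher direction there were 7 (background 6.66% of genes), namely ELOVL6, SQLE, INSIG1, SREBF2, MVK, LSS and LPIN1. In the lower direction there was 1, PMVK (background 8.59%). Of the 33 members, 24 were higher (72.7%, against 49.4% of genes) and 9 lower. The members' median log2 fold change was 0.11, against -0.0033 for all genes. These calls rest on the spread between 2 libraries per group. The 2 were kept because replicate 1 was seen to stand apart in these same data. Their spread may therefore be too small and the p-values too low. In the same fit 6 of 7 epithelial markers were also called higher, with a log2 fold change of 0.91 for CDH1 and 0.71 for EPCAM, and the summed CPM of the 7 was 7389 and 7190 with METTL3 and 5943 and 5838 with the vector. Of 5 stromal, endothelial and blood markers tested there, 1 was called higher and 0 lower. The part of all these markers in the members' differences was not tested.

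**Figure D3:**
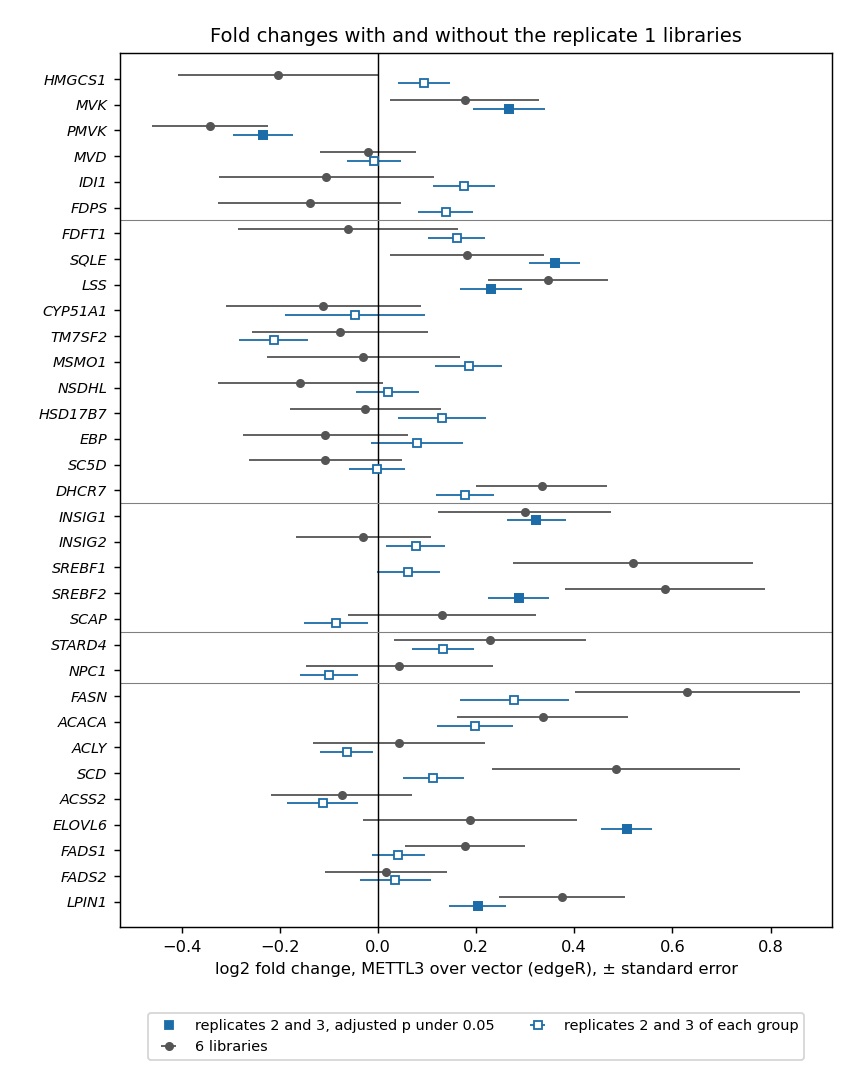
Points give the log2 fold change of each member from edgeR's test on 6 libraries (grey circles) and on replicates 2 and 3 of each group (blue squares, filled where the adjusted p was under 0.05), and bars give the standard error. The 7 members called higher in replicates 2 and 3 lie between 0.20 and 0.51, and PMVK lies at -0.23.

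Among the SREBP precursors, SREBF2 (ENSG00000198911.12, chromosome 22, 41833105 to 41907306, forward strand) reached 179, 111 and 104 CPM in replicates 1, 2 and 3 with METTL3 and 86.9, 93.2 and 82.9 CPM with the vector (replicates are listed in this order throughout). Every METTL3-overexpressing library lay above every vector control, and replicate 1 lay far above its group. The log2 fold change was 0.58 (SE 0.20, adjusted p = 0.55), and 0.29 (SE 0.062, adjusted p = 0.0058) in replicates 2 and 3. SREBF1 (ENSG00000072310.18, chromosome 17, 17810399 to 17837002, reverse strand) was at 233, 148 and 140 CPM with METTL3 and at 87.9, 147 and 128 CPM with the vector. Its groups overlapped, and its spread came from replicate 1, where the difference was 1.41 on the log2 scale against 0.01 and 0.13 within replicates 2 and 3. The log2 fold change of SREBF1 was 0.52 (SE 0.24, adjusted p = 0.62), and 0.062 (SE 0.064, adjusted p = 0.60) in replicates 2 and 3.

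INSIG1 (ENSG00000186480.13, chromosome 7, 155297776 to 155310235, forward strand) was at 57.0, 43.7 and 42.3 CPM with METTL3 and at 47.5, 35.1 and 33.5 CPM with the vector. Both replicate 1 libraries were the highest of their group, so the groups overlapped, yet the difference within each replicate number was nearly the same, 0.26, 0.31 and 0.33 on the log2 scale. On all 6 libraries its log2 fold change was 0.30 (SE 0.18, adjusted p = 0.65). In replicates 2 and 3 it was 0.32 (SE 0.060, adjusted p = 0.0018). INSIG2, the second retention protein, was at 70.7, 63.7 and 67.9 CPM with METTL3 and at 81.9, 60.3 and 64.3 CPM with the vector, with a log2 fold change of -0.03 (SE 0.14), and 0.08 in replicates 2 and 3. SCAP ranged from 77.1 to 84.8 CPM with METTL3 and from 52.2 to 90.4 CPM with the vector, the lowest value being that of vector control replicate 1.

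**Figure D4:**
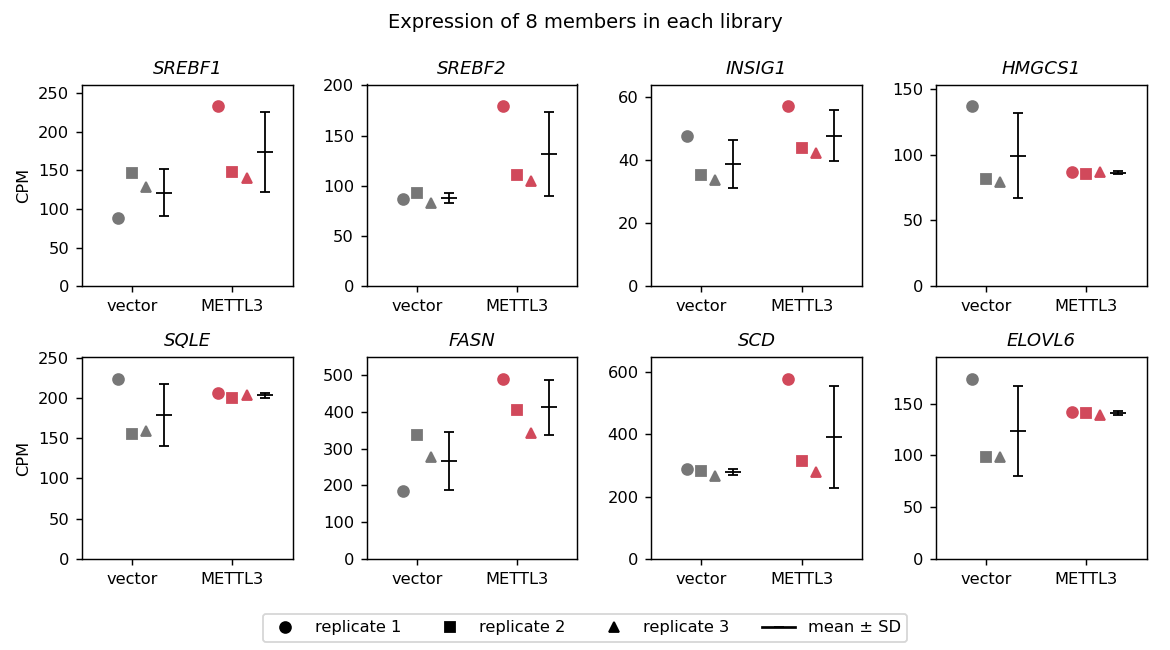
CPM of 8 members in each vector control (grey) and METTL3-overexpressing (red) library, with symbols for the replicate number and the mean ± SD of 3 libraries beside them. For SQLE, HMGCS1 and ELOVL6 vector control replicate 1 is the highest library, and for SREBF1 and FASN it is the lowest.

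In the mevalonate steps, HMGCS1 (ENSG00000112972.15, chromosome 5, 43287470 to 43313512, reverse strand), the synthase that makes HMG-CoA, was at 86.5, 84.95 and 87.1 CPM with METTL3 and at 137, 81.6 and 79.5 CPM with the vector. The METTL3-overexpressing libraries were nearly equal and the vector controls were split by replicate 1. Over all libraries its log2 fold change was -0.20 (SE 0.20, adjusted p = 0.78) and changed sign to 0.09 (SE 0.053, adjusted p = 0.29) in replicates 2 and 3. IDI1 and FDPS, which act after mevalonate has been phosphorylated and decarboxylated, had the same shape, with 74.95 and 73.7 CPM in vector control replicate 1 and from 40.7 to 52.5 CPM in all other libraries. MVK and PMVK, the kinases that act in succession on mevalonate, had log2 fold changes of opposite sign. MVK was at 21.0, 18.2 and 19.2 CPM with METTL3 and at 20.7, 15.2 and 15.8 CPM with the vector, and its log2 fold change was 0.18 (SE 0.15, adjusted p = 0.74) on 6 libraries and 0.27 (SE 0.074, adjusted p = 0.024) in replicates 2 and 3. PMVK (ENSG00000163344.6, chromosome 1, 154924740 to 154936719, reverse strand) was at 31.7, 32.1 and 34.1 CPM with METTL3 and at 46.3, 39.6 and 38.2 CPM with the vector. Every vector control lay above every METTL3-overexpressing library. PMVK had a log2 fold change of -0.34 (SE 0.12, adjusted p = 0.55), and -0.23 (SE 0.061, adjusted p = 0.018) in replicates 2 and 3. MVD, the decarboxylase between them and IDI1, stayed between 67.7 and 72.2 CPM in all 6 libraries, with the smallest coefficient of variation of any member (2.28%).

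From squalene onward, FDFT1, the squalene synthase, was at 132, 110 and 109 CPM with METTL3 and at 171, 93.2 and 102 CPM with the vector, with a log2 fold change of -0.06 (SE 0.22, adjusted p = 0.95), and 0.16 (adjusted p = 0.086) in replicates 2 and 3. SQLE (ENSG00000104549.12, chromosome 8, 124998497 to 125022283, forward strand), a rate-controlling enzyme of the pathway, was at 206, 199 and 204 CPM with METTL3 and at 224, 155 and 158 CPM with the vector. As for HMGCS1, the METTL3-overexpressing libraries were close together and vector control replicate 1 was the highest of all. SQLE had a log2 fold change of 0.18 (SE 0.16, adjusted p = 0.74), and 0.36 (SE 0.051, adjusted p = 0.00022) in replicates 2 and 3. LSS, which closes the sterol ring to give lanosterol, was at 68.3, 57.5 and 53.9 CPM with METTL3 and at 46.4, 49.9 and 45.0 CPM with the vector. DHCR7, the last enzyme of the Kandutsch-Russell branch, was at 197, 161 and 150 CPM with METTL3 and at 128, 143 and 131 CPM with the vector. Neither gene's groups overlapped. LSS had a log2 fold change of 0.35 (SE 0.12, adjusted p = 0.55), and 0.23 (SE 0.064, adjusted p = 0.024) in replicates 2 and 3. For DHCR7 it was 0.33 (SE 0.13, adjusted p = 0.57), and 0.18 (SE 0.059, adjusted p = 0.058) in replicates 2 and 3.

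TM7SF2, a sterol C14 reductase, was at 48.5, 33.7 and 31.6 CPM with METTL3 and at 44.5, 40.2 and 35.4 CPM with the vector, so the replicate 1 libraries were the highest in each group. Its log2 fold change was -0.08 (SE 0.18) on 6 libraries and -0.21 (SE 0.070, adjusted p = 0.058) in replicates 2 and 3. NSDHL, a sterol dehydrogenase, was at 27.1, 25.7 and 25.3 CPM with METTL3 and at 37.0, 24.8 and 25.3 CPM with the vector. SC5D, the C5 desaturase, was at 54.3, 47.6 and 46.5 CPM with METTL3 and at 65.7, 46.3 and 47.8 CPM with the vector. Both lay highest in vector control replicate 1 and differed little among the remaining libraries, and their log2 fold changes were -0.16 (SE 0.17) and -0.11 (SE 0.16), and 0.02 and -0.0026 in replicates 2 and 3. CYP51A1, MSMO1, HSD17B7 and EBP had log2 fold changes from -0.11 to -0.03 on 6 libraries, none with p under 0.05, and each had its highest CPM in vector control replicate 1.

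The sterol transport proteins were opposite in shape. STARD4, which moves cholesterol between membranes, was at 56.9, 37.8 and 37.0 CPM with METTL3 and at 44.2, 32.8 and 35.3 CPM with the vector, with replicate 1 the highest in both groups and a log2 fold change of 0.23 (SE 0.20, adjusted p = 0.74). NPC1, which exports cholesterol from lysosomes, was at 49.7, 58.5 and 54.2 CPM with METTL3 and at 36.9, 61.5 and 59.1 CPM with the vector. It was lowest in replicate 1 of both groups, and its log2 fold change was 0.04 (SE 0.19, adjusted p = 0.96). Neither passed the test in replicates 2 and 3, where the log2 fold changes were 0.13 and -0.10.

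In fatty acid synthesis, FASN (ENSG00000169710.9, chromosome 17, 82078338 to 82098294, reverse strand), the synthase itself, was at 490, 406 and 341 CPM with METTL3 and at 183, 337 and 278 CPM with the vector. The groups did not overlap, but METTL3-overexpressing replicate 3 and vector control replicate 2 nearly met. For FASN the log2 fold change was 0.63 (SE 0.23, adjusted p = 0.56), and 0.28 (SE 0.11, adjusted p = 0.17) in replicates 2 and 3. ACACA, which makes malonyl-CoA, was at 265, 200 and 166 CPM with METTL3 and at 181, 165 and 155 CPM with the vector, with a log2 fold change of 0.34 (SE 0.17, adjusted p = 0.63). It was 0.16 without METTL3-overexpressing replicate 1, and 0.20 (SE 0.077, adjusted p = 0.12) in replicates 2 and 3. ACLY was at 213, 254 and 238 CPM with METTL3 and at 171, 260 and 253 CPM with the vector, with a log2 fold change of 0.04 (SE 0.17), and -0.06 in replicates 2 and 3. ACLY was thus lowest in replicate 1 of both groups. SCD (ENSG00000099194.6, chromosome 10, 100347233 to 100364826, forward strand) was at 577, 315 and 279 CPM with METTL3 and at 288, 282 and 267 CPM with the vector. Its METTL3-overexpressing replicate 1 value stood alone, the other 5 libraries lying within 267 to 315 CPM. For SCD the log2 fold change was 0.49 (SE 0.25, adjusted p = 0.63), and 0.11 (SE 0.062, adjusted p = 0.27) in replicates 2 and 3.

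ELOVL6 (ENSG00000170522.10, chromosome 4, 110045846 to 110199199, reverse strand), which elongates palmitate, was at 142, 141 and 139 CPM with METTL3 and at 174, 98.1 and 98.6 CPM with the vector. The log2 fold change was 0.19 (SE 0.22, adjusted p = 0.81), and 0.51 (SE 0.052, adjusted p = 1.2e-05) in replicates 2 and 3, the largest difference and the smallest adjusted p of the members there. Within replicate 1 its sign was opposite, at -0.29. LPIN1, a phosphatidate phosphatase of glycerolipid synthesis, was at 69.6, 60.6 and 56.8 CPM with METTL3 and at 42.3, 50.9 and 51.1 CPM with the vector, without overlap. Its log2 fold change was 0.38 (SE 0.13, adjusted p = 0.55), and 0.20 (SE 0.058, adjusted p = 0.028) in replicates 2 and 3. ACSS2, which makes acetyl-CoA from acetate, was at 43.9, 36.2 and 33.8 CPM with METTL3 and at 44.3, 40.5 and 35.1 CPM with the vector, and its log2 fold change of -0.07 (SE 0.14) was the lowest of this role on 6 libraries. It was -0.11 in replicates 2 and 3. The desaturases FADS1 and FADS2, which overlap on opposite strands of chromosome 11, had log2 fold changes of 0.18 (SE 0.12) and 0.02 (SE 0.12), and both had 0.04 in replicates 2 and 3.

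The members were also compared for steadiness across the numbered libraries. In 12 of the 33 (36.4%) the METTL3-overexpressing library was the higher within all 3 replicate numbers, and in 2 (6.06%) it was the lower, against 19.6% and 19.98% of all genes tested. The replicate number itself was tested as a factor beside the group. At an unadjusted p under 0.05 it was called for 4 members, STARD4, INSIG1, FDFT1 and TM7SF2 (12.1% of members, background 13.1% of genes). No member had an adjusted p under 0.05 (background 0.0318%). The smallest adjusted p was 0.24, for STARD4 and INSIG1.

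GC content moved with the differences within replicate 1. The median difference of all tested genes ran from -0.29 for transcripts of 30 to 35% GC to 0.35 at 70 to 75% GC within replicate 1. Within replicate 2 it fell instead, from 0.022 at 45 to 50% GC to -0.23 at 70 to 75% GC. Within replicate 3 it stayed between -0.098 and 0.021. The 17 members with the higher GC content (median 58.1%) had a median difference of 0.12 within replicate 1, and 10 of them were higher with METTL3. The 16 with the lower GC content (median 41.6%) had a median difference of -0.22, and 6 of them were higher. Within replicates 2 and 3 the lower-GC members had the larger medians, 0.22 and 0.12 against 0.047 and 0.053. FASN (65.3% GC), SREBF1 (63.2%) and SCAP (61.7%) were in the higher set. HMGCS1 (39.0%), IDI1 (41.1%) and ELOVL6 (41.4%) were in the lower. Members of like GC content could still differ, since SREBF2 (57.1%) differed by 1.04 and FDPS (56.0%) by -0.59 within replicate 1. PMVK (59.0%) at -0.55 and STARD4 (34.4%, the lowest GC content of the members) at 0.36 went against the trend there. The trends with GC content and length were then taken out of each library, an alternative added after the data were seen. On 6 libraries 0 members passed and 21 were higher (63.6%, against 48.0% of genes). The members' median log2 fold change was 0.089, against -0.011 for all genes. With the trend removed in replicates 2 and 3, 18 members passed as higher (background 12.2%) and 1, PMVK, as lower (background 9.14%), with a median of 0.16 against 0.023 for all genes.

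**Figure D5:**
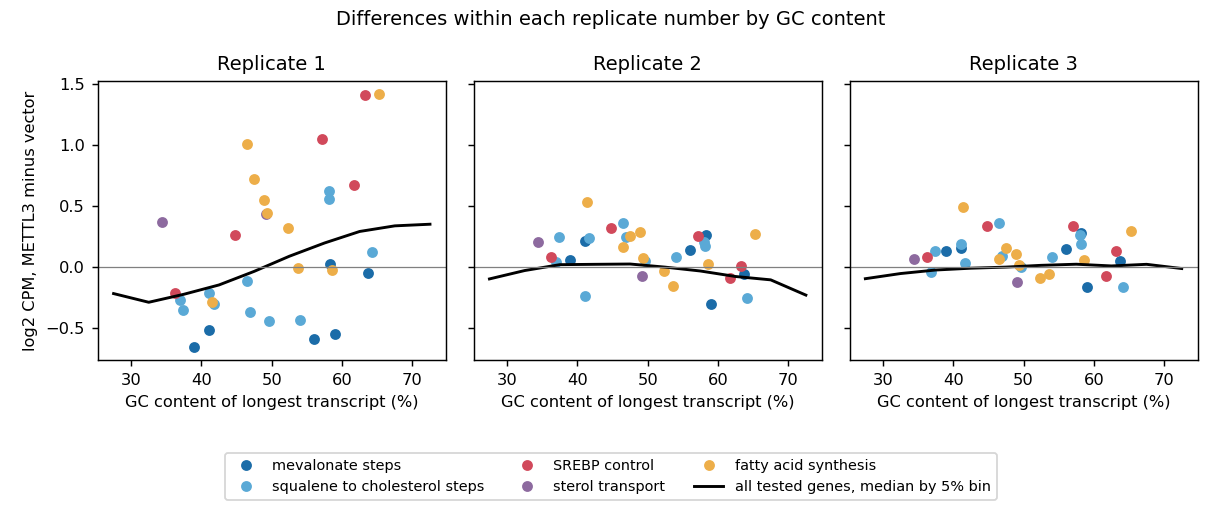
Each panel gives, for 1 replicate number, the difference in log2 CPM (METTL3-overexpressing minus vector control) of the members, coloured by role, against the GC content of the longest transcript, with the median of all tested genes by bins of 5% GC as a line. In replicate 1 the line dips from -0.22 to -0.29 and then climbs to 0.35, and the members span -0.66 to 1.42 there. In replicate 2 it falls from 0.022 at 45 to 50% GC to -0.23 at 70 to 75% GC.

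The members did not differ much from other tested genes in base composition. Their median GC content was 49.3%, against 48.3% for tested genes, and GGACT, a common m6A sequence, occurred at a median of 0.816 per kb of transcript, against 0.910 per kb. Their longest transcripts had a median of 4109 bases against 2887. Their median count was 5882 against 685, with 32 of 33 above the tested median. All shares of calls above are set against genes that are mostly counted less deeply. No m6A measurement was analysed here.

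The rest of the pathway was followed in lists of genes that are no members. Of 17 other genes of sterol synthesis and SREBP processing, 7 were higher and 10 lower on 6 libraries, and 1, RNF139, a ubiquitin ligase, had an unadjusted p under 0.05, with a log2 fold change of -0.32 (SE 0.13, adjusted p = 0.59). Of 14 genes of sterol uptake, esterification and export, 7 were higher and 7 lower, with 0 at this p. Of 20 tested genes among 21 other fatty acid genes, 12 were higher and 8 lower, and ELOVL7, another elongase, was at 12.1, 11.6 and 12.4 CPM with METTL3 and at 9.50, 8.81 and 8.27 CPM with the vector (log2 fold change 0.44, SE 0.13, adjusted p = 0.46). Among 17 genes of fatty acid oxidation, 7 were higher and 10 lower. Without overlap in CPM between the groups, 7 were lower with METTL3 (41.2%, background 8.93% of genes) and 2 higher (11.8%, background 8.47%). PPARA, the nuclear receptor that induces oxidation, was at 36.4, 28.8 and 24.5 CPM with METTL3 and at 16.6, 20.6 and 17.9 CPM with the vector, with a log2 fold change of 0.70 (SE 0.17, adjusted p = 0.40). SLC25A20, the carnitine carrier of mitochondria, had a log2 fold change of -0.43 (SE 0.14, adjusted p = 0.53). In replicates 2 and 3 these 4 lists held 4, 3, 7 and 4 genes with an adjusted p under 0.05, of which 1, 1, 4 and 1 were higher. These were 23.5%, 21.4%, 35% and 23.5% of the lists, against 15.25% of all genes tested.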

How the data were processed

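Poly(A) RNA of 6 OVCAR5 libraries was analysed. The authors aligned reads to hg38 with HISAT2 and counted them per gene with Subread, and the deposited values are raw counts for 60649 rows, of which 43096 hold a count. Versions and the use of strand are not given in the sources used here, and the labels and the paper differ on kit and read layout. Of the counts from 1 to 20, 68.9% were even, so halved counts were also tested. Identifiers were matched to GENCODE release 44 (GRCh38), which named 60507 rows. Every column was mapped to a library by name.

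The 22038 genes kept by filterByExpr (edgeR 4.0.16, R 4.3.3) were scaled by TMM, and glmQLFTest was run after a robust glmQLFit. P-values were adjusted by Benjamini-Hochberg, with calls at 0.05. Unless another tool is named, p-values are from this two-sided test, and adjusted p-values run over all genes tested (22046 in replicates 2 and 3). A standard error is the size of the log2 fold change divided by the root of F. Within-number differences used log2 CPM with a prior count of 2. Trends were fitted per library with splines (5 degrees of freedom) in GC content and in log length. Alternatives were DESeq2 1.42.0, its size factors, counts of at least 10 in every library, all genes with a count, a replicate block, each library left out, replicates 2 and 3, and halved counts. The fits were also run on simulated counts, with 200 genes changed 2-fold between groups or in replicate 1, or with a known trend in GC content. Those counts were drawn independently for each gene and library. They do not show how the fits behave with replicate 1 libraries that stand apart as widely as here.

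The labels share replicate numbers between the groups. Deviations of same-numbered libraries from their group means correlated at 0.33, 0.12 and 0.17, each above 0.1, the rule used for pairing. Libraries 2 and 3 also correlated across numbers (0.21 and 0.13). METTL3-overexpressing replicate 2 correlated more with vector control replicate 3 than with replicate 2. Deviations cancel out within a group, so replicate 1 libraries that stand apart can by themselves meet the rule for libraries 2 and 3. The correlations therefore do not show that numbers 2 and 3 pair the libraries. Within-number differences follow the numbers in the labels, which do not state a pairing.

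The members and lists were chosen with earlier results of these data known. Values in every library are given for SREBF1, SREBF2, INSIG1, HMGCS1, SQLE, FASN and SCD, for members with an unadjusted p under 0.05, for the highest and lowest log2 fold change of each role, and for the 8 members with the smallest p for replicate number. Up to 3 genes by p were named from each other list. ELOVL6 and the remaining members were named after their values were seen, as were the promoters shown.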

Additional observations from a re-analysis of the deposited data

How the results depend on the processing

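With 6 libraries the count of members called stayed at 0 with DESeq2, its size factors, at least 10 counts in every library, halved counts, the replicate block (0 genes and 0 members) and the GC and length trend removed, and was 3 without a filter. The numbers of all genes called were 0 in edgeR, 280 with DESeq2, 560 without a filter, 1 with the trend removed, 3362 in replicates 2 and 3 and 4704 there with the trend removed, and at an unadjusted p under 0.05 edgeR had 1830. With each library left out they ran from 0 to 367, members called from 0 to 1, members higher from 18 to 27, and the median log2 fold change of members from 0.025 to 0.13, the highest in each case without vector control replicate 1. Replicates 2 and 3 gave 8 members called, or 19 and a median of 0.16 with the trend removed. For the replicate number, 7 genes were called, against 1130 with DESeq2 and 1482 without a filter. The block changed no call.

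Signs depended most on vector control replicate 1. Log2 fold changes changed sign in replicates 2 and 3 for HMGCS1 (0.093), IDI1 (0.18), FDPS (0.14), FDFT1 (0.16), MSMO1 (0.18), NSDHL (0.020), HSD17B7 (0.13), EBP (0.080), INSIG2 (0.077), SCAP (-0.086), NPC1 (-0.099) and ACLY (-0.064). With the trend removed they did so for FDFT1 (0.0015), MSMO1 (0.13), HSD17B7 (0.061), INSIG2 (0.092) and FADS2 (-0.065), and with the trend removed in replicates 2 and 3 for HMGCS1 (0.13), MVD (0.081), IDI1 (0.20), FDPS (0.17), FDFT1 (0.18), MSMO1 (0.21), NSDHL (0.027), HSD17B7 (0.16), EBP (0.061), SC5D (0.042), INSIG2 (0.13), NPC1 (-0.061) and ACLY (-0.019). The block reversed MSMO1 (0.0073). MVD, near 0 throughout, was reversed at 10 counts in every library (0.0025), with halved counts (0.0022) and without a filter (0.00037).
With single libraries left out, members that changed sign ranged as follows: HMGCS1 from -0.31 to 0.098, MVD from -0.023 to 0.026, IDI1 from -0.23 to 0.22, FDPS from -0.23 to 0.12, FDFT1 from -0.19 to 0.26, CYP51A1 from -0.25 to 0.023, TM7SF2 from -0.27 to 0.058, MSMO1 from -0.14 to 0.24, NSDHL from -0.23 to 0.052, HSD17B7 from -0.10 to 0.11, EBP from -0.20 to 0.065, SC5D from -0.17 to 0.071, INSIG2 from -0.087 to 0.11, SCAP from -0.072 to 0.31, NPC1 from -0.16 to 0.19, ACLY from -0.13 to 0.17, ACSS2 from -0.17 to 0.023 and FADS2 from -0.022 to 0.095. Without vector control replicate 1, 17 members changed sign, and without vector control replicate 2, 1 did. Without METTL3-overexpressing replicates 1, 2 and 3 in turn, 2, 7 and 4 members changed sign. The cause of these changes was not tested, and removal of the trends was added after the data were seen.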
